A study of Mus musculus with 36 samples.

Results

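A set of 5 genes that encode mouse histone H3 lysine 4 (H3K4) demethylases was followed as one group: Kdm1a and Kdm1b, which encode amine oxidases that use flavin, and Kdm5a, Kdm5b and Kdm5c, which encode dioxygenases with a Jumonji domain. The Y-linked KDM5 gene, Kdm5d, is not in this set and is described apart. They were chosen by name, and all 5 were found among the 51734 gene symbols of the count table and among the 20511 genes with enough counts to be tested. The values come from RNA-seq of E14 mouse embryonic stem cells (ESC) and of neural precursor cells (NPC) made from them with retinoic acid (RA in the labels). There were 6 groups of 3 libraries: at each stage a wild type (WT), a line labelled MLL3/4 dCD (dCD below), in which the methyltransferases MLL3 and MLL4 are catalytically dead, and a line labelled MLL2 dTAG (MLL2dTAG below), in which MLL2 carries a degron through which the compound dTAG-13 directs it to degradation. Per the labels, the NPC, harvested on day 4, had received dTAG-13 at 2 µM since day 1. Every library, WT and ESC included, is labelled as treated with dTAG-13 at 2 µM, so no comparison isolates the compound. For ESC no start day of treatment is recorded, so the stages may differ in length of exposure. Each genotype is 1 line in the labels, so a difference between genotypes cannot be told apart from a difference between lines. The labels do not say whether replicates came from separate cultures, so the p-values measure only the spread between these libraries, which may be technical.

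Methylation of H3K4 marks active regulatory DNA, with monomethylation typical of enhancers, where MLL3 and MLL4 act, and trimethylation typical of promoters, where MLL2 acts at CpG-rich sequence. The enzymes studied here remove these marks. KDM1A (LSD1) works inside the CoREST complex with histone deacetylases and removes mono- and dimethylation, and it is known for silencing enhancers of the stem cell state when ESC differentiate. KDM1B (LSD2) works with the reader GLYR1 (NPAC) and is known for its role in setting DNA methylation in oocytes. KDM5A, KDM5B and KDM5C remove di- and trimethylation. Kdm5c lies on the X chromosome and has a partner on the Y chromosome, Kdm5d, and loss of human KDM5C causes intellectual disability.

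RefSeq promoter windows of 300 bases (250 before to 50 after the start, build GRCm38.p6) were present for Kdm1a, Kdm1b, Kdm5b and Kdm5c. Of these, 2 are shown because they belong to the member with the widest change in the MLL2dTAG line at the NPC stage (Kdm1b) and to the member with the narrowest range over all groups (Kdm5c). The capitals mark CG dinucleotides, the sequence that the CXXC domain of MLL2 binds when it is not methylated.
Kdm1b (chr13:47043249-47043548, plus strand): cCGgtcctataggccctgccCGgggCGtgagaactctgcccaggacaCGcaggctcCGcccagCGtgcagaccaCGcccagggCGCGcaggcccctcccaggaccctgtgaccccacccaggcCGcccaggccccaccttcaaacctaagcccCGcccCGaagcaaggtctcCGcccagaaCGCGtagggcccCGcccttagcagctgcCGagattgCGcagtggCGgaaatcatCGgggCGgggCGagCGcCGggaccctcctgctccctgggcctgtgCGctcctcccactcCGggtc
Kdm5c (chrX:152232977-152233276, plus strand): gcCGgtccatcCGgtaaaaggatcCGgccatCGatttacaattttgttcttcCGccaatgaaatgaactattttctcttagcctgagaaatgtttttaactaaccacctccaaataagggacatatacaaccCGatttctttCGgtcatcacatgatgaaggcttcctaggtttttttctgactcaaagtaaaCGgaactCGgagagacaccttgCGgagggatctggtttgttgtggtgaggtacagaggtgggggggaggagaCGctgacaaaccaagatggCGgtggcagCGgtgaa
The Kdm1b window held 26 CG dinucleotides and 72.3% G and C, and 16.9% of the 32851 windows of this length in the table held at least as many CG. The Kdm5c window held 13 CG and 47% G and C, and 37.9% of windows held at least as many. Counts were 29 for Kdm1a (12.9% of windows held at least as many) and 17 for Kdm5b (31.4%), against a median of 7 over all windows. All 4 windows were therefore richer in CG than the median window. The match of letters is a description of the sequence and says nothing of binding in these cells.

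Library totals ranged from 19.4 to 46.0 M counts, and the members had 664 to 24198 counts per library, so counting error was small for each. Levels are given in CPM, counts brought to a common library total after scaling by TMM (trimmed mean of M-values). ESC WT replicate 1 had the lowest total and also the lowest level of each of the 5 genes within its group. The libraries called NPC had lost stem cell transcripts: the summed level of 8 pluripotency markers was 2739 to 2884 CPM in ESC WT and, among NPC, 43.3 to 43.9 CPM for WT, 66.9 to 72.6 for dCD and 169 to 171 for MLL2dTAG. The summed level of 8 neural markers was 104 to 107 CPM in ESC WT and, among NPC, 192 to 201 CPM for WT, 398 to 437 for dCD and 260 to 267 for MLL2dTAG. Pax6 rose to 38.9 ± 1.16 CPM in NPC WT (SD, n = 3), but Sox1 stood at 3.10 ± 0.240 CPM there against 3.05 ± 0.460 CPM in ESC WT (SD, n = 3), and Hes5 was under 1 CPM in every library. Endoderm markers (5 genes) summed to 203 to 211 CPM in the WT, 175 to 183 in the dCD and 498 to 510 in the MLL2dTAG libraries of NPC. In ESC they summed to 13.6 to 15.4 CPM in WT, 9.81 to 10.8 in dCD and 26.3 to 29.2 in MLL2dTAG. Markers of mesenchyme (5 genes) summed to 683 to 701, 868 to 955 and 1030 to 1044 CPM in the NPC groups (WT, dCD, MLL2dTAG), and to 447 to 559, 699 to 780 and 797 to 850 CPM in the 3 ESC groups in the same order. The mesenchymal genes did not all move with their sum. By the edgeR test described below, 3 were higher and 2 lower in NPC WT than in ESC WT (39.1% and 40.4% of all genes). Against NPC WT, 3 were higher and 2 lower in NPC MLL2dTAG (33.3% and 28.4% of all genes). In NPC dCD 4 were higher and 0 lower (26.7% and 26.8% of all genes). These marker sums differed with both stage and line, their part in the results below was not tested, and fewer cells of a type cannot be told apart from less RNA per cell.

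**Figure D1:**
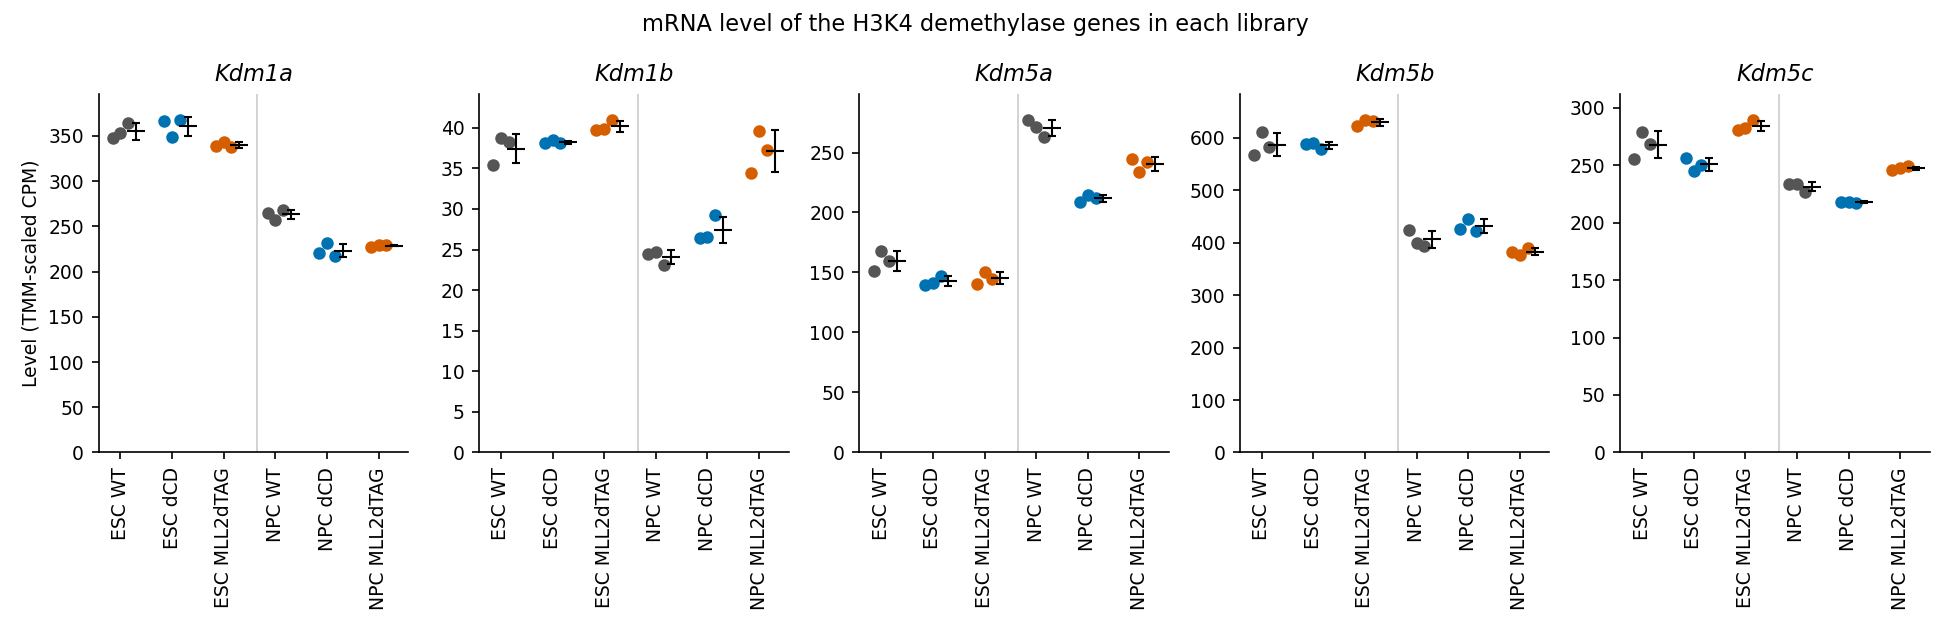
Level of each gene in every library, in CPM (y axis, starting at 0), for the 6 groups (x axis); points are libraries, and the bar beside them is the mean with its SD (n = 3). Kdm5a is the gene that stands higher in NPC than in ESC, while Kdm1b in NPC MLL2dTAG lies near its ESC level.

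On a scale per kb of annotated exon, which allows genes to be compared, Kdm1a was the most abundant member in ESC WT at 68.5 ± 1.74 CPM per kb (SD, n = 3). Kdm5c followed at 37.7 ± 1.66 and Kdm5b at 35.5 ± 1.32, then Kdm5a at 11.3 ± 0.604, and Kdm1b was the least abundant at 6.81 ± 0.328 CPM per kb (SD, n = 3). In NPC WT the order was the same, from 50.8 ± 1.00 for Kdm1a to 4.38 ± 0.162 CPM per kb for Kdm1b. The order of Kdm5b and Kdm5c depends on the length used: per kb of the longest annotated transcript, Kdm5b stood at 67.4 ± 2.52 and Kdm5c at 41.5 ± 1.83 CPM per kb in ESC WT (SD, n = 3). Over the 6 groups the highest mean was 1.89 times the lowest for Kdm5a, 1.67 times for Kdm1b, 1.64 times for Kdm5b, 1.62 times for Kdm1a and 1.30 times for Kdm5c.

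Differences between groups were tested with edgeR's quasi-likelihood test, and a gene is called where its p, adjusted by the Benjamini-Hochberg method over all 20511 genes, was under 0.05. Changes below are log2 fold changes ± SE from the fit over 18 libraries. With such counts 42.9% to 79.5% of the tested genes pass, depending on the comparison, so each number of members is set beside the share of all tested genes called. Complete separation of 2 groups was common too. Their libraries did not overlap for 51.8% to 67.9% of all genes between lines and 79.2% to 80.5% between stages. From ESC WT to NPC WT all 5 members were called, with Kdm5a higher and the other 4 lower, where 79.5% of all genes were called (39.1% higher and 40.4% lower). In the dCD line the same 5 directions were called between stages, against 77.6% of all genes (38.7% higher, 39% lower). In the MLL2dTAG line Kdm5a was higher and Kdm1a, Kdm5b and Kdm5c were lower, and Kdm1b was not called, against 78.2% of all genes (39.9% higher, 38.3% lower). With most tested genes called, these counts alone do not set the members apart.

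Between lines fewer members were called in ESC than in NPC. In ESC, 2 members were called in dCD against WT, both lower (Kdm5a and Kdm5c), where 48.3% of all genes were called (25.7% higher, 22.6% lower). In ESC MLL2dTAG against WT 3 were called, Kdm5b and Kdm5c higher and Kdm5a lower, against 56.9% of all genes (28.7% higher, 28.2% lower). At the NPC stage all 5 were called in both lines: in dCD, Kdm1b and Kdm5b higher and Kdm1a, Kdm5a and Kdm5c lower, against 53.5% of all genes (26.7% higher, 26.8% lower), and in MLL2dTAG, Kdm1b and Kdm5c higher and Kdm1a, Kdm5a and Kdm5b lower, against 61.7% (33.3% higher, 28.4% lower). Both lines were set against the same WT libraries. Of the calls over all genes in NPC MLL2dTAG, 54.0% were higher with TMM, 44.7% with upper-quartile scaling and 45.7% with total counts. The count in ESC dCD was 1 without ESC WT replicate 2 or ESC dCD replicate 2, and that in NPC dCD was 3 without NPC WT replicate 2, NPC WT replicate 3 or NPC dCD replicate 3. The called changes were small for this data set: the median size of a called change over all genes was 0.47 in NPC dCD and 0.58 in NPC MLL2dTAG on the log2 scale, and of the members only Kdm1b in NPC MLL2dTAG exceeded it, larger than 63.1% of all changes in that comparison.

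**Figure D2:**
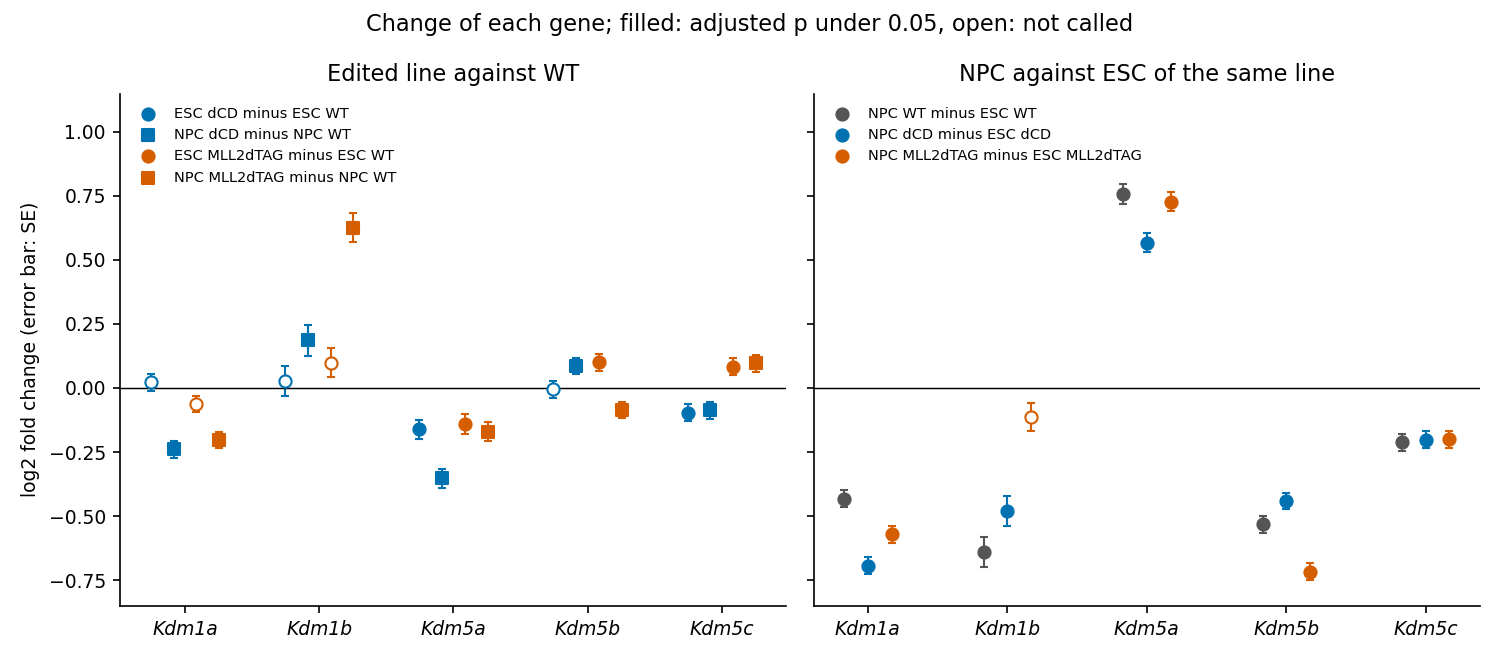
Log2 fold change (y axis) of each gene in each edited line against WT (left) and in NPC against ESC of the same line (right); error bars are SE, filled points have an adjusted p under 0.05 and open points do not. Kdm5a is above 0 in each stage comparison, and Kdm1b in NPC MLL2dTAG against NPC WT is the highest point on the left at 0.63.

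Kdm1a fell as ESC became NPC, and it fell further in both edited lines. Its level was 347, 353 and 365 CPM in the 3 ESC WT libraries and 264, 258 and 268 CPM in NPC WT. The groups did not overlap, and the change was -0.43 ± 0.03 (adjusted p = 2.02e-14, edgeR). In dCD it was 366, 349 and 368 CPM in ESC and 221, 231 and 217 CPM in NPC, a change of -0.69 ± 0.03 (adjusted p = 2.77e-20, edgeR). In MLL2dTAG it was 339, 343 and 337 CPM in ESC and 228, 229 and 229 CPM in NPC, a change of -0.57 ± 0.03 (adjusted p = 6.47e-18, edgeR). At the NPC stage every library of both edited lines lay under every WT library, by -0.24 ± 0.03 in dCD (adjusted p = 9.92e-08, edgeR) and -0.20 ± 0.03 in MLL2dTAG (adjusted p = 1.46e-06, edgeR). In ESC neither line was called against WT: the change was 0.02 ± 0.03 in dCD (adjusted p = 0.607, edgeR) and -0.06 ± 0.03 in MLL2dTAG (adjusted p = 0.0966, edgeR), although upper-quartile scaling and offsets for GC content and length called the latter, at -0.12 and -0.10. The difference between stages in the effect of the line was itself called in both lines, at -0.26 ± 0.05 in dCD (adjusted p = 1.48e-05) and -0.14 ± 0.05 in MLL2dTAG (adjusted p = 0.0113, edgeR interaction terms). The second was -0.23 with total counts and -0.24 when genes of low count were kept.

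Kdm1b, the paralog of Kdm1a, fell with it in WT and dCD, and its fall was smaller and not called in the MLL2dTAG line. In WT it fell from 35.4, 38.7 and 38.2 CPM in ESC to 24.5, 24.7 and 23.0 CPM in NPC, a change of -0.64 ± 0.06 (adjusted p = 4.63e-12, edgeR). In dCD it fell from 38.1, 38.4 and 38.1 CPM to 26.4, 26.5 and 29.2 CPM, by -0.48 ± 0.06 (adjusted p = 3.8e-09, edgeR). Neither pair of groups overlapped. In MLL2dTAG the ESC libraries held 39.8, 39.8 and 40.9 CPM and the NPC libraries 34.4, 39.5 and 37.3 CPM, also without overlap. That change of -0.11 ± 0.06 was not called (adjusted p = 0.0597, edgeR), but it was called at -0.12 with halved counts, at -0.12 in a fit of the 2 groups alone, at -0.20 with offsets for GC content and length, at -0.23 with upper-quartile scaling and at -0.16 without NPC MLL2dTAG replicate 2. Against NPC WT, Kdm1b in NPC MLL2dTAG was higher by 0.63 ± 0.06 (adjusted p = 8.45e-12, edgeR), or 1.54-fold, with no overlap between libraries, and it was the largest change of any member between lines.

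In ESC the same contrast gave 0.10 ± 0.06 for Kdm1b (adjusted p = 0.141, edgeR, and called at 0.16 without a filter on low counts), and the difference between stages was 0.53 ± 0.08 (adjusted p = 1.11e-06, edgeR interaction term). The mean level in NPC MLL2dTAG was 99.1% of that in ESC WT and 92.3% of that in ESC MLL2dTAG. For the summed level of pluripotency markers these values were 6.01% and 4.84%. In NPC WT, Kdm1b stood at 64.3% of its ESC WT level and the marker sum at 1.54%. The part of remaining stem cell transcripts in the level of Kdm1b was not tested. In NPC dCD, Kdm1b was higher than in NPC WT by 0.19 ± 0.06 (adjusted p = 0.00802, edgeR), a call lost without NPC WT replicate 3 (0.16, adjusted p = 0.0559) or NPC dCD replicate 3 (0.14, adjusted p = 0.0801, edgeR). The interaction term in dCD was 0.16 ± 0.08 and was not called (adjusted p = 0.124, edgeR). Per kb of exon, Kdm1b made up 9.03% ± 0.305 of the KDM1 counts in ESC WT and 7.94% ± 0.395 in NPC WT, against 10.4% ± 0.781 for the NPC of dCD and 13.2% ± 0.762 for those of MLL2dTAG (SD, n = 3). Its share in NPC was thus lowest in WT, and the libraries of the 3 NPC groups did not overlap in this share. Per kb of the longest transcript, a choice made after seeing the data, the shares were lower, at 6.01% ± 0.210 in ESC WT and 5.26% ± 0.269, 6.95% ± 0.543 and 8.96% ± 0.541 in the NPC groups (WT, dCD, MLL2dTAG; SD, n = 3), in the same order and again without overlap among NPC.

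Kdm5a, which encodes the retinoblastoma-binding member of the KDM5 family, was the member that rose with differentiation. It went from 151, 168 and 159 CPM in ESC WT to 277, 271 and 263 CPM in NPC WT, a rise of 0.76 ± 0.04 (1.69-fold, adjusted p = 1.16e-19, edgeR). In dCD it went from 140, 141 and 147 CPM to 209, 214 and 212 CPM, by 0.57 ± 0.04 (adjusted p = 7.83e-16, edgeR). In MLL2dTAG it went from 140, 150 and 145 CPM to 244, 234 and 242 CPM, by 0.73 ± 0.04 (adjusted p = 3.38e-19, edgeR). Libraries of the 2 stages did not overlap in any line, as for 79.2% to 80.5% of all genes. The size of these rises depended on offsets for GC content and length, under which they were 0.52, 0.26 and 0.44, with each still called.

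Kdm5a was also lower in both edited lines at both stages, and each of the 4 contrasts separated the libraries completely. Such separation was seen for 51.8% to 67.9% of all genes in these contrasts. In ESC the change was -0.16 ± 0.04 in dCD (adjusted p = 0.00069, edgeR) and -0.14 ± 0.04 in MLL2dTAG (adjusted p = 0.00207, edgeR). In NPC it was -0.35 ± 0.04 in dCD (adjusted p = 2.98e-10, edgeR) and -0.17 ± 0.04 in MLL2dTAG (adjusted p = 0.000113, edgeR). The ESC changes were the less stable: with offsets for GC content and length the ESC dCD change was -0.09 (still called), and without a filter on low counts the ESC MLL2dTAG change was -0.08 and not called (adjusted p = 0.132, edgeR). Upper-quartile scaling put the NPC MLL2dTAG change at -0.26. The interaction term was called in dCD, at -0.19 ± 0.05 (adjusted p = 0.00374, edgeR), and not in MLL2dTAG, at -0.03 ± 0.05 (adjusted p = 0.668, edgeR).

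Kdm5b, the KDM5 member with the most counts in these cells, fell with differentiation. In WT it went from 568, 611 and 583 CPM in ESC to 424, 400 and 395 CPM in NPC, a change of -0.53 ± 0.03 (adjusted p = 5.78e-17, edgeR). In dCD it went from 589, 590 and 579 CPM to 426, 446 and 422 CPM, by -0.44 ± 0.03 (adjusted p = 1.13e-14, edgeR). In MLL2dTAG it went from 623, 634 and 632 CPM to 382, 377 and 389 CPM, by -0.72 ± 0.03 (adjusted p = 7.69e-21, edgeR), with no overlap of stages in any line. Offsets for GC content and length made these falls larger, at -0.80, -0.78 and -1.01. The fall was larger in MLL2dTAG than in WT by an interaction of -0.18 ± 0.05 (adjusted p = 0.000963, edgeR), where Kdm5b stood above WT in ESC MLL2dTAG and below it in NPC MLL2dTAG. The interaction was -0.28 when genes of low count were kept.

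These line effects on Kdm5b were 0.10 ± 0.03 in ESC MLL2dTAG (adjusted p = 0.00879, edgeR) and -0.09 ± 0.03 in NPC MLL2dTAG (adjusted p = 0.0228, edgeR). The first was lost with upper-quartile scaling (0.05) and in a fit of the 2 groups alone (0.09), and the second without NPC WT replicate 1 (-0.05) or NPC MLL2dTAG replicate 1 (-0.08) or replicate 2 (-0.07). Other settings made them larger, with the calls kept: the first was 0.16 when genes of low count were kept, and the second was -0.18 with upper-quartile scaling, -0.17 with total counts and -0.14 with GC and length offsets. In dCD the change of Kdm5b was 0.00 ± 0.03 in ESC (adjusted p = 0.933, edgeR) and 0.09 ± 0.03 in NPC (adjusted p = 0.0258, edgeR), where the libraries overlapped. That call in NPC dCD was lost with upper-quartile scaling (0.08) and without NPC WT replicate 2 (0.07), NPC WT replicate 3 (0.06) or NPC dCD replicate 2 (0.06). The dCD interaction term was 0.09 ± 0.05 (adjusted p = 0.117, edgeR), and was called without ESC WT replicate 1 (0.11, adjusted p = 0.0401) or NPC WT replicate 1 (0.12, adjusted p = 0.0462, edgeR).

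Kdm5c varied least. In WT it was 255, 279 and 269 CPM in ESC and 233, 234 and 226 CPM in NPC, a change of -0.21 ± 0.03 (adjusted p = 5.19e-07, edgeR). In dCD it was 256, 245 and 250 CPM and then 218, 218 and 217 CPM, and in MLL2dTAG 280, 282 and 289 CPM and then 246, 247 and 249 CPM. The fall was -0.20 ± 0.03 in each of these lines (adjusted p = 1.42e-06 in dCD and 1.28e-06 in MLL2dTAG, edgeR), and stages did not overlap in any line. The size of these falls depended on the setting, with each still called. In dCD it was -0.35 with offsets for GC content and length, -0.12 with total counts and -0.10 when genes of low count were kept. In WT the last 2 settings gave -0.13 and -0.11, and in MLL2dTAG upper-quartile scaling gave -0.32. The interaction terms were 0.01 ± 0.05 in both lines (adjusted p = 0.898 in dCD and 0.857 in MLL2dTAG, edgeR).

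Kdm5c was lower in dCD and higher in MLL2dTAG than in WT at both stages. In dCD the change was -0.10 ± 0.03 in ESC (adjusted p = 0.016, edgeR), with overlapping libraries, and -0.09 ± 0.03 in NPC (adjusted p = 0.027, edgeR). In MLL2dTAG it was 0.08 ± 0.03 in ESC (adjusted p = 0.0299, edgeR) and 0.10 ± 0.03 in NPC (adjusted p = 0.0111, edgeR). None of these 4 calls held in every alternative, although the ESC MLL2dTAG change was larger, at 0.14, when genes of low count were kept. The ESC dCD call was lost without ESC WT replicate 2 (-0.06) or ESC dCD replicate 2 (-0.08), and the ESC MLL2dTAG call without ESC WT replicate 1 (0.05), ESC WT replicate 3 (0.09) or ESC MLL2dTAG replicate 3 (0.07). The NPC dCD call was lost without NPC WT replicate 1 (-0.08) or 2 (-0.08) or NPC dCD replicate 1 (-0.09) or 3 (-0.08), and the NPC MLL2dTAG call without NPC WT replicate 3 (0.08). Upper-quartile scaling ended both MLL2dTAG calls, at 0.03 in ESC and 0.01 in NPC, as did a fit of the compared groups alone, at 0.08 and 0.05. Without a filter on low counts the calls in ESC dCD (-0.08), NPC dCD (-0.07) and NPC MLL2dTAG (0.06) were lost. Offsets for GC content and length ended those in ESC dCD (-0.04) and ESC MLL2dTAG (0.06). RLE size factors ended the NPC dCD call, at -0.08, and total counts as the only scaling the NPC MLL2dTAG call, at 0.01.

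The edited lines were also set against each other. In ESC, 3 members were called in MLL2dTAG against dCD, where 47.2% of all genes were called (23.4% higher, 23.7% lower): Kdm5c was higher by 0.18 ± 0.03 (adjusted p = 2.3e-05, edgeR), Kdm5b was higher by 0.10 ± 0.03 (adjusted p = 0.00781, edgeR), and Kdm1a was lower by -0.09 ± 0.03 (adjusted p = 0.0286, edgeR). The Kdm1a call was lost without ESC dCD replicate 1 (-0.08) or 3 (-0.07) or ESC MLL2dTAG replicate 1 (-0.08) or 3 (-0.09). It was also lost when no low-count filter was used (-0.05), but held at -0.14 under upper-quartile scaling. The Kdm5b call was lost with upper-quartile scaling (0.05) or offsets for GC content and length (0.02). Under these offsets Kdm5c was still called, at 0.10. In NPC, 4 members were called, where 55.9% of all genes were called (31.6% higher, 24.3% lower). Kdm1b was higher in MLL2dTAG by 0.44 ± 0.06 (adjusted p = 2.75e-08, edgeR), Kdm5a by 0.18 ± 0.04 (adjusted p = 6.77e-05, edgeR) and Kdm5c by 0.18 ± 0.03 (adjusted p = 1.22e-05, edgeR), and Kdm5b was lower by -0.17 ± 0.03 (adjusted p = 2.74e-05, edgeR). Libraries of the 2 lines did not overlap for any of these 4 genes, as for 62.1% of all genes. Upper-quartile scaling and total counts brought the changes of Kdm5a and Kdm5c to 0.10 each, still called. Of the higher and lower calls over all genes in this comparison, 56.5% were higher with TMM, 45.2% with upper-quartile scaling and 45.3% with total counts. In ESC the share of calls that were higher was 49.7% with TMM and 40.5% with upper-quartile scaling.

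For the test of whether a line's effect differed between stages, 2 members were called in dCD, both negative, where 42.9% of all genes were called (20% positive, 22.9% negative). In MLL2dTAG 3 were called, Kdm1b positive and Kdm1a and Kdm5b negative, where 49% of all genes were called (26.4% positive, 22.6% negative).

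**Figure D3:**
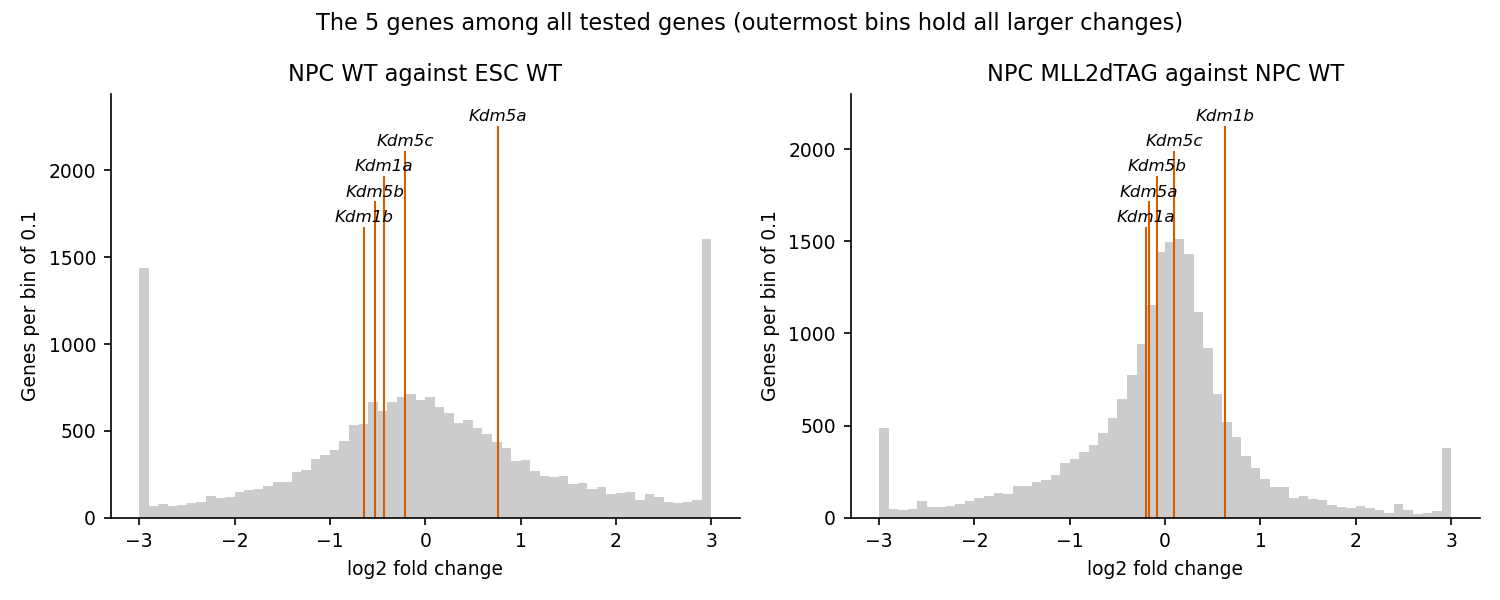
Number of tested genes (y axis) per bin of 0.1 of log2 fold change (x axis) from ESC WT to NPC WT (left) and from NPC WT to NPC MLL2dTAG (right), with the members marked by vertical lines whose heights carry no value; the outermost bins hold all larger changes. The members lie within the body of both distributions, with Kdm5a at 0.76 on the left and Kdm1b at 0.63 on the right.

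The make-up of the KDM5 transcripts shifted with differentiation. Per kb of exon, Kdm5a made up 13.4% ± 0.150 of the counts of the 3 KDM5 members, without Kdm5d, in ESC WT and 25.1% ± 0.0623 in NPC WT (SD, n = 3). Kdm5b went from 42.0% ± 0.310 to 32.2% ± 0.580, and Kdm5c from 44.6% ± 0.216 to 42.7% ± 0.560 (SD, n = 3). In NPC dCD the share of Kdm5a was 20.9% ± 0.232 and in NPC MLL2dTAG 22.7% ± 0.375 (SD, n = 3), each below every NPC WT library. Kdm5b held a larger share in NPC dCD, 36.4% ± 0.601, and Kdm5c in NPC MLL2dTAG, 46.4% ± 0.426 (SD, n = 3). With the length of the longest transcript, a choice made after seeing the data, Kdm5a went from 11.8% ± 0.147 to 23.0% ± 0.109 in WT and Kdm5b held the largest share in both, 54.6% ± 0.319 and 43.5% ± 0.640 (SD, n = 3).

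**Figure D4:**
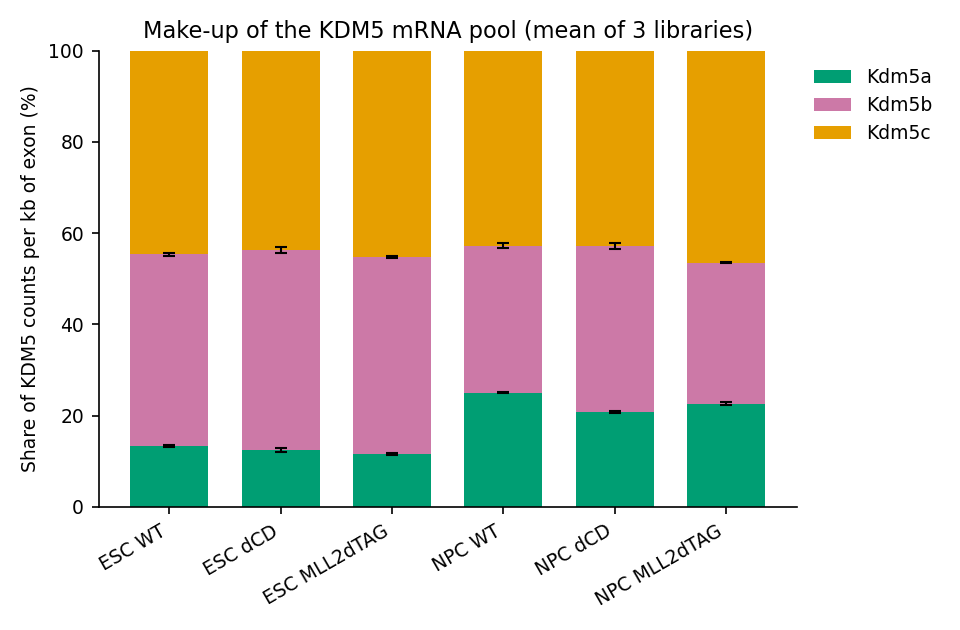
Share of each KDM5 gene in their summed counts per kb of exon (y axis, percent) in each group (x axis), as means of 3 libraries; the bar at the top of the Kdm5a and Kdm5b segments is the SD of that gene's share. The Kdm5a segment is 13.4% in ESC WT and 25.1% in NPC WT.

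Genes for the complexes that carry these enzymes were examined next. Of 11 genes of the CoREST complex of KDM1A, 8 rose and 2 fell from ESC WT to NPC WT, where 39.1% of all genes rose and 40.4% fell, with a median change of 0.36 against -0.04 over all genes. Kdm1a itself fell. The 3 corepressor paralogs that bridge KDM1A to nucleosomes moved differently: Rcor1 rose from 73.9 ± 4.86 to 147 ± 2.68 CPM, Rcor3 rose from 14.0 ± 1.44 to 22.3 ± 0.968 CPM, and Rcor2 fell from 137 ± 1.99 to 103 ± 0.853 CPM (SD, n = 3). Rcor2 then stood at 57.6 ± 1.23 CPM in NPC dCD and 34.3 ± 2.01 CPM in NPC MLL2dTAG (SD, n = 3), changes against NPC WT of -0.84 ± 0.04 (adjusted p = 1.67e-19) and -1.58 ± 0.04 (adjusted p = 2.39e-27, edgeR). Rcor3 was at 34.3 ± 1.36 CPM in NPC MLL2dTAG (SD, n = 3), higher than in NPC WT by 0.62 ± 0.07 (adjusted p = 6.84e-10, edgeR). In the list as a whole, 3 genes were higher and 6 lower in NPC dCD, where 26.7% and 26.8% of all genes were (median -0.09, against -0.02 over all genes). In NPC MLL2dTAG 3 were higher and 6 lower, where 33.3% and 28.4% of all genes were (median -0.11, against 0.03 over all genes). In ESC dCD 3 were higher and 3 lower, against 25.7% and 22.6% of all genes (median 0.04, against 0.02). In ESC MLL2dTAG 7 were higher and 2 lower, against 28.7% and 28.2% (median 0.09, against 0.00), or 5 higher and 3 lower with upper-quartile scaling.

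Glyr1, the partner of KDM1B, rose where Kdm1b fell with differentiation, from 224 ± 2.89 CPM in ESC WT to 266 ± 5.57 CPM in NPC WT (SD, n = 3). It was higher than WT in both lines at both stages, at 259 ± 3.12 and 256 ± 4.28 CPM in ESC dCD and ESC MLL2dTAG and at 306 ± 3.80 and 307 ± 6.58 CPM in the NPC of these lines (SD, n = 3). The 4 changes lay between 0.19 and 0.21, and each was called in the fit above and in every alternative run (edgeR and DESeq2). Their size was less stable: the change in NPC MLL2dTAG was 0.12 with upper-quartile scaling and 0.13 with total counts, and the rise from ESC WT to NPC WT, 0.25, was 0.14 with offsets for GC content and length. Of 7 recruiters of KDM1A, transcription factors that bring it to DNA, 6 had enough counts to be tested, and all 6 were called from ESC WT to NPC WT, 3 higher and 3 lower, against 79.5% of all genes called. Among them Sall4, a stem cell factor, fell by 3.37 and Rest, the repressor of neuronal genes, fell by 1.61 on the log2 scale, while Insm1 and Snai1 rose by 2.45 and 1.90 (edgeR).

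Of 7 genes of the SIN3B module with which KDM5A is found, among them Hdac1 and Hdac2 that are also in the CoREST list, 3 rose and 3 fell from ESC WT to NPC WT (median 0.00). The share called was near the 79.5% of all genes (39.1% higher, 40.4% lower). Phf12 rose by 0.65 and Sin3b by 0.25, and Hdac1 fell by 0.44 on the log2 scale (edgeR). In the lines against WT the changes of this module were at most 0.46 in size, and the medians lay between 0.03 and 0.11. In MLL2dTAG against dCD the medians were -0.01 in ESC and -0.07 in NPC. In NPC MLL2dTAG against WT 4 were higher and 1 lower, where 33.3% and 28.4% of all genes were. The counts were 1 higher and 3 lower with upper-quartile scaling, 2 and 3 with total counts, and 2 and 2 with GC and length offsets, where the median was 0.00. Of the 6 genes of the opposing H3K4 methyltransferases, 3 rose and 2 fell from ESC WT to NPC WT, where 39.1% of all genes rose and 40.4% fell. Their median change was 0.22, or -0.02 with offsets for GC content and length. Setd1b had the widest change between stages, rising from 17.7 ± 1.61 CPM in ESC WT to 78.4 ± 2.75 CPM in NPC WT (SD, n = 3). It was already higher in ESC dCD, at 42.8 ± 2.77 CPM, and in ESC MLL2dTAG, at 42.9 ± 0.632 CPM (SD, n = 3). In NPC MLL2dTAG against WT 3 of the 6 were higher and 0 lower, where 33.3% and 28.4% of all genes were. Upper-quartile scaling or total counts gave 1 and 1. Kmt2c, which encodes MLL3, was at 322 ± 19.6 CPM there against 175 ± 3.89 CPM in NPC WT (SD, n = 3). In ESC it was at 280 ± 5.46 CPM in MLL2dTAG and 193 ± 23.3 CPM in WT (SD, n = 3). Kmt2b, which encodes MLL2, changed by -0.04 in ESC MLL2dTAG (not called) and by 0.11 in NPC MLL2dTAG (called, edgeR, but lost in 10 of 15 alternatives). The degron acts on the protein, so its transcript does not check the labels. Of 19 other lysine demethylase genes, 16 were called from ESC WT to NPC WT, 8 higher and 8 lower, where 79.5% of all genes were called. Total counts gave 11 higher and 6 lower, and offsets for GC content and length 7 and 10. Against NPC WT, 9 were called in NPC dCD (2 higher, 7 lower), where 53.5% of all genes were (26.7% higher, 26.8% lower). In NPC MLL2dTAG 14 were called (4 higher, 10 lower), where 61.7% of all genes were (33.3% higher, 28.4% lower). In NPC MLL2dTAG upper-quartile scaling, total counts and the offsets each gave 3 higher and 13 lower, and the list holds the Y-linked Kdm5d and Uty, which were at or near 0 counts there. The totals in either direction are near the shares of all genes called, while in both NPC lines more genes of the list were lower than higher. Kdm4c, a demethylase of H3K9, fell from 295 ± 7.64 CPM in ESC WT to 61.2 ± 1.17 CPM in NPC WT, and Kdm6b, a demethylase of H3K27, rose from 49.5 ± 6.30 to 170 ± 7.82 CPM (SD, n = 3).

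Kdm5c and its Y-linked partner were compared with 3 other X and Y gene pairs. Kdm5c shared no stretch of 50 bases with Kdm5d in the annotated transcripts. Kdm5d was much lower than Kdm5c: in ESC it stood at 2.64 ± 0.601 CPM for WT, 5.31 ± 0.343 for dCD and 1.33 ± 0.191 for MLL2dTAG, and in NPC at 7.06 ± 0.730 CPM for WT and 9.60 ± 0.840 for dCD (SD, n = 3). In NPC MLL2dTAG it had 0, 2 and 4 counts. Uty, the Y-linked partner of Kdm6a, had 2, 0 and 2 counts there against 1538, 1860 and 1692 in NPC WT, and in ESC MLL2dTAG it stood at 1.57 ± 0.130 CPM against 41.6 ± 0.657 CPM in ESC WT (SD, n = 3). The Y-linked genes Eif2s3y and Ddx3y had 4 to 15 counts in the NPC MLL2dTAG libraries and 1984 to 2757 in NPC WT. In ESC MLL2dTAG, Eif2s3y stood at 2.25 to 3.44 CPM against 76.9 to 78.5 CPM in ESC WT. Ddx3y stood at 3.84 to 4.41 CPM there against 69.3 to 75.7 CPM in ESC WT. All 4 Y-linked genes were thus at or near 0 counts in NPC MLL2dTAG and lower in ESC MLL2dTAG than in ESC WT. The genotype label does not mention this, and its part in the changes of that line was not tested. In NPC MLL2dTAG the X-linked partners Kdm5c, Kdm6a, Eif2s3x and Ddx3x were called higher, by 0.10, 0.25, 0.13 and 0.34 (edgeR), but with upper-quartile scaling or total counts only Kdm6a and Ddx3x were. In ESC MLL2dTAG, Kdm5c and Ddx3x were higher by 0.08 and 0.10, Kdm6a was lower by -0.10, a call lost in 10 of 15 alternatives, and Eif2s3x was not called at -0.05 (edgeR).

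As a description, the genes most like each member over the 18 libraries were taken by Pearson's r of log2 CPM among 11804 genes whose mean reached 5 CPM. The libraries fall into 2 stages and 6 groups, and a gene that differs between stages scores high for that alone: 1586 genes had r above 0.9 with Kdm1a, 1323 with Kdm5a and 1365 with Kdm5b, but 220 with Kdm1b and 179 with Kdm5c. The values within ESC and then within NPC (9 libraries each) are therefore given after it. Kdm1a was most like Ccnb1, which encodes cyclin B1 (r = 0.994, and 0.719 within ESC and 0.963 within NPC), then AC164102.1 (r = 0.992, and 0.742 and 0.926) and Zfp473, a zinc finger gene (r = 0.992, but 0.187 within ESC and 0.978 within NPC). Kdm1b was most like Rpl39l, a paralog of a ribosomal protein gene (r = 0.982, and 0.670 and 0.979), followed by Calcoco2, an autophagy receptor (r = 0.971, and 0.550 and 0.952), and Atp6v1b2, a subunit of the vacuolar proton pump (r = 0.970, but 0.174 within ESC and 0.967 within NPC). Kdm5a was most like Cdk19, a kinase of the Mediator complex (r = 0.991, and 0.832 and 0.943), then Podxl (r = 0.990, and 0.746 and 0.983) and Slc1a3, a glutamate transporter (r = 0.990, and 0.819 and 0.967). Kdm5b was most like Frrs1 (r = 0.992, and 0.956 and 0.920), then Nr4a1, a nuclear receptor (r = 0.990, and 0.840 and 0.885), and Plekhg1 (r = 0.990, and 0.694 and 0.890). Kdm5c was most like Nucks1 (r = 0.976, and 0.961 and 0.965), then Stag3, a cohesin subunit (r = 0.969, and 0.906 and 0.951), and Tead4, a transcription factor (r = 0.967, and 0.872 and 0.975).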

How the data were processed

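The values deposited by the authors are raw counts for each gene symbol, not normalized, and 18 columns of 1 count table were assigned to samples by name. HTSeq is named in the submitters' processing notes, and the labels' protocols name TruSeq Stranded mRNA libraries. Which aligner and genome build served these libraries is not given in the sources used here. A further 6 columns of the table carried repeated names, and the other table's 12 columns matched no label, so 18 samples in 8 groups were not analysed here. All 37 mitochondrial genes were at 0, and 60.8% to 66.5% of counts from 1 to 10 were even, so halved counts were run as an alternative. Replicates differed beyond sampling noise (chi-square over its degrees of freedom, 2.19 to 10.5), so none was merged. The 2 highest values, 10.5 and 8.38, were the pairs with ESC WT replicate 2, while ESC WT replicates 1 and 3 gave 3.33. The next highest was 4.43, between NPC dCD replicates 1 and 2.

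The counts were fitted with edgeR 4.0.16 in R 4.3.3 (TMM, filterByExpr by group, quasi-likelihood, 6 group means, two-sided, 12 residual degrees of freedom) over 20511 genes, with 11 comparisons and Benjamini-Hochberg adjustment within each. The script was tested on simulated data. Alternatives were RLE, upper-quartile and total-count scaling, no low-count filter, a replicate block, halved counts, offsets for GC content and length, the compared groups alone, DESeq2 1.42.0, and leaving out each library. Exon lengths came from GENCODE M21, and promoters from RefSeq (GRCm38.p6). Members are all 5 named demethylases. Related lists are given by counts, some also by medians, with up to 4 named genes each, while the X and Y gene pairs are named in full. The most alike genes are the top 3 by Pearson's r. A planned comparison of the proteins was not run. The members and lists were chosen with earlier results of these data known.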

Additional observations from a re-analysis of the deposited data

Results flagged for a closer look

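In 5 cases the effect of a line on a member differed between ESC and NPC by the interaction term of the edgeR fit (effect in NPC minus effect in ESC, log2 scale). In dCD these were Kdm1a, at -0.26 (0.02 in ESC and -0.24 in NPC, where all 3 NPC libraries lay below WT), and Kdm5a, at -0.19 (-0.16 in ESC and -0.35 in NPC). In MLL2dTAG they were Kdm1b, at 0.53 (0.10 in ESC and 0.63 in NPC), Kdm5b, at -0.18 (0.10 in ESC and -0.09 in NPC), and Kdm1a, at -0.14 (-0.06 in ESC and -0.20 in NPC). The interaction was called for 42.9% of all genes in dCD and 49% in MLL2dTAG, so a called term is common in these data.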

How the results depend on the processing

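The 5 called interaction terms, the stage changes called in each line, the changes of Kdm1a and Kdm5a in both lines at the NPC stage and of Kdm1b in NPC MLL2dTAG kept their direction and their call in every alternative run. Of 885 recomputed member values, 806 kept direction and side of the threshold, 40 lost a call, 10 gained one and 29 changed sign. No sign change involved a value called in either fit. The lost calls were changes of at most 0.19 on the log2 scale, and the cause was not tested. The number of members called in ESC dCD was 2, and 1 without a low-count filter or with offsets for GC content and length (96.0% of genes had both values), and it ranged from 1 to 2 when each library was left out. In ESC MLL2dTAG it was 3, and 1 in a fit of the compared groups alone, which has fewer samples. In NPC dCD it was 5, and from 3 to 4 when each library was left out.

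Signs changed as follows. Kdm5b in ESC dCD was 0.0105 with RLE, 0.0103 with DESeq2, 0.000796 with total counts, 0.0167 with no filter and 0.0534 with offsets, and ranged from -0.0275 to 0.0266 when each library was left out, while Kdm1b there ranged from -0.00822 to 0.0510. Kdm5a in ESC MLL2dTAG against dCD was -0.0317 with upper-quartile scaling and -0.0379 with offsets, and ranged from -0.00328 to 0.0450 when each library was left out. Kdm1a in NPC MLL2dTAG against dCD was -0.0463 with upper-quartile scaling, -0.0459 with total counts, -0.0225 with no filter, -0.0197 with offsets and -0.0211 with the compared groups alone. The Kdm5c interaction in dCD was -0.0587 with offsets and -0.00688 with the compared groups alone (-0.0227 to 0.0408 when each library was left out), and in MLL2dTAG -0.00627 with RLE, -0.0249 with upper-quartile scaling, -0.0750 with total counts, -0.0841 with no filter and -0.00542 with DESeq2 (-0.0207 to 0.0438). The Kdm5a interaction in MLL2dTAG ranged from -0.0735 to 0.00403 when each library was left out.

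Upper-quartile scaling moved the median change of all genes from 0.00 to -0.11 between the stages of MLL2dTAG. Replicate numbers did not pair the samples: 0 of 45 correlations of same-numbered deviations exceeded 0.1 (-0.162 to 0.0752), and the own number correlated best in 14. With a replicate block, 9761 genes were called in ESC dCD against 9909 without, and no member changed its call. Depth limits Kdm1b most, at 664 counts in its lowest library.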
